A study of Homo sapiens with 14 samples.

Results

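NF-kB is a family of transcription factors whose activity can be followed through the RNAs of the genes that it switches on. Here 10 such genes, NFKBIA, NFKB1, NFKB2, RELB, TNFAIP3, BIRC3, IER3, CXCL8, IL6 and CXCL1, were followed in MDA-MB-231 cells treated with RBI2 or CX-5461. The 10 genes were chosen by name as well-known NF-kB targets, out of 60876 annotated genes to which reads were summed, and all 10 passed the filter on low counts that left 15426 genes tested. MDA-MB-231 is an established human line from a triple-negative breast cancer. CX-5461 is an inhibitor of RNA polymerase I (Pol I), and RBI2 is a small molecule that the study examined as an inhibitor of ribosome biogenesis. RNA-seq was performed on 14 libraries, 2 replicates in each of 7 groups. Control cells received neither compound. The other groups received 5 µM RBI2 or 5 µM CX-5461 and were labelled 10 min, 30 min or 120 min, so that both compounds were used at 1 dose and at the same labelled times.

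In resting cells NF-kB dimers are held in the cytoplasm by inhibitor proteins such as the product of NFKBIA. Signals from cytokine receptors activate the IKK kinases, the inhibitor is degraded, and the dimers enter the nucleus. They then switch on cytokines, survival genes and their own inhibitors, which makes NF-kB a loop with negative feedback. MDA-MB-231 cells are known for a high basal NF-kB activity, and several of the target RNAs are short-lived. The question addressed was whether either compound altered the RNAs of these targets relative to the control, and whether RBI2 and CX-5461 differed at a matched label.

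Several properties of the libraries bear on what follows. Libraries held between 14112299 and 24849354 estimated reads. Every comparison with the control shares its 2 libraries. Control replicate 2 stood apart, with 20.6% of its reads on mitochondrial genes against 8.14 to 11.3% in the other libraries, and 1412 genes differed by more than 2-fold between the control replicates against 461 to 629 in the treated groups. Leaving out each control library is therefore given beside each call of a single gene, by the test described below, that it ended. The shares of all genes tested, printed beside the counts, come from the fit of all 14 libraries. Without control replicate 1, the share of all genes that passed against the control was larger in every treated group. The deposited files of the treated libraries carry time tags that differ from the labels (02, 10 and 30 for the labels 10, 30 and 120 min), so times are given here as the labels state them. The study describes the control cells as untreated in one place and as DMSO-treated in another. No source says whether replicates came from separate cultures, so the p-values measure the spread between these libraries, which may be technical. Markers of the line were present or low as its name implies, with median levels of 2469 TPM for VIM and 547 TPM for CD44 and at most 0.205 TPM in any library for ESR1 and 0.285 TPM for CDH1. EPCAM and ERBB2, chosen as low or absent, were present at medians of 14.5 and 18.4 TPM. The leukocyte and endothelial markers PTPRC, CD3E, ITGAM, PECAM1 and CDH5 held at most 7 reads in any library.

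NF-kB proteins bind a short DNA consensus, and the 250 bases before the start site of a gene show where it lies. RefSeq promoters (GRCh38.p14) were matched for 8 of the 10 genes, NFKBIA, NFKB1, NFKB2, TNFAIP3, BIRC3, CXCL8, IL6 and CXCL1. The NF-kB consensus, searched by name on both strands, was found in 6 of these 8 and in 5.05% of all 27305 promoters of that length. With any first base allowed, a looser form that contains the first, it was found in 7 of the 8 and in 13.6% of all promoters. The AP-1 motif TGACTCA was found in CXCL8 alone among the 8 and in 4.16% of all promoters, and TATAAA in NFKBIA and CXCL8 and in 11.1% of all promoters, each on either strand. The promoters of NFKBIA (chr14:35404750-35404999, minus strand) and BIRC3 (chr11:102317234-102317483, plus strand) are shown because both RNAs were lower in a treated group. That of CXCL1 (chr4:73869143-73869392, plus strand) is shown for a chemokine whose RNA passed neither threshold, and that of NFKB2 (chr10:102393860-102394109, plus strand) as the only one of the 8 without a match to the looser form. Each is written 5′ to 3′ on the strand of the gene, and capitals mark matches to the looser consensus on either strand, merged where they overlap.
NFKBIA: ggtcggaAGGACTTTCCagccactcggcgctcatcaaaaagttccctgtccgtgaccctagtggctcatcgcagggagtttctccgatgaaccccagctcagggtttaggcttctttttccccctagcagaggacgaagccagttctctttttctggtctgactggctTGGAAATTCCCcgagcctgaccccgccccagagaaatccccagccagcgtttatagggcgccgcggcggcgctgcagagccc
BIRC3: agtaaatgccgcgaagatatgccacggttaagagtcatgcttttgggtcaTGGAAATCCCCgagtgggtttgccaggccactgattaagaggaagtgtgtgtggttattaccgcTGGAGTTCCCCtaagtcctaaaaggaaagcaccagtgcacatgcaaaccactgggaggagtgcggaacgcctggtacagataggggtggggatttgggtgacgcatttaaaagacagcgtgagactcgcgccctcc
CXCL1: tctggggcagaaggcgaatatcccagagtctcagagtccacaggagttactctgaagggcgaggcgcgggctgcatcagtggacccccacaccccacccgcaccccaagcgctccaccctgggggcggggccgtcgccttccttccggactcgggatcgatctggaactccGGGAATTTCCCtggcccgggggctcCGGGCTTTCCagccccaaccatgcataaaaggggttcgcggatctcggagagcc
NFKB2: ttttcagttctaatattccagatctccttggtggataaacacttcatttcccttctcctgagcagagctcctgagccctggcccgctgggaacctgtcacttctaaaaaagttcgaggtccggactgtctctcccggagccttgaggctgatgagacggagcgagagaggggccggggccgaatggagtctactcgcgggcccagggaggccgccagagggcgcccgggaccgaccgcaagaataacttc
In NFKBIA the matches lay 243 to 234 and 82 to 72 bases before the start site. In BIRC3 they lay 200 to 190 and 136 to 126 bases before it, and in CXCL1 79 to 69 and 54 to 45 bases before it. A match is a run of letters and not a shown binding site.

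The 10 RNAs differed widely in abundance. On the TPM scale, which is per length of transcript, the median level over the 14 libraries was 115 TPM for IER3, and its lowest library, at 44.9 TPM, was above the highest value of any of the others. NFKB2 (median 30.2 TPM), NFKBIA (28.4 TPM), NFKB1 (26.8 TPM) and BIRC3 (20.7 TPM) followed, and their ranges over libraries overlapped. RELB (13.3 TPM) and CXCL8 (11.9 TPM) had lower medians, and their ranges overlapped each other and those of NFKBIA and BIRC3. CXCL1 (3.39 TPM), IL6 (2.47 TPM) and TNFAIP3 (2.22 TPM) were lowest, and their ranges overlapped too. The number of reads behind these levels differed as well. NFKB1 held 984 to 1915 reads in a library and IER3 848 to 2902, whereas IL6 held 13 to 32 and CXCL1 21 to 76, so that small differences in the last 2 were not detectable at this depth. Comparisons between groups below use counts scaled to library size with TMM (CPM), a difference is a log2 fold change with its standard error (SE), and a gene passed edgeR's quasi-likelihood test when its Benjamini-Hochberg adjusted p was under 0.05 and its log2 fold change reached 1 in either direction. Genes past the adjusted p alone are given as such. In bulk RNA, a lower level can come from fewer cells that hold the RNA or from less RNA per cell, which cannot be told apart.

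**Figure D1:**
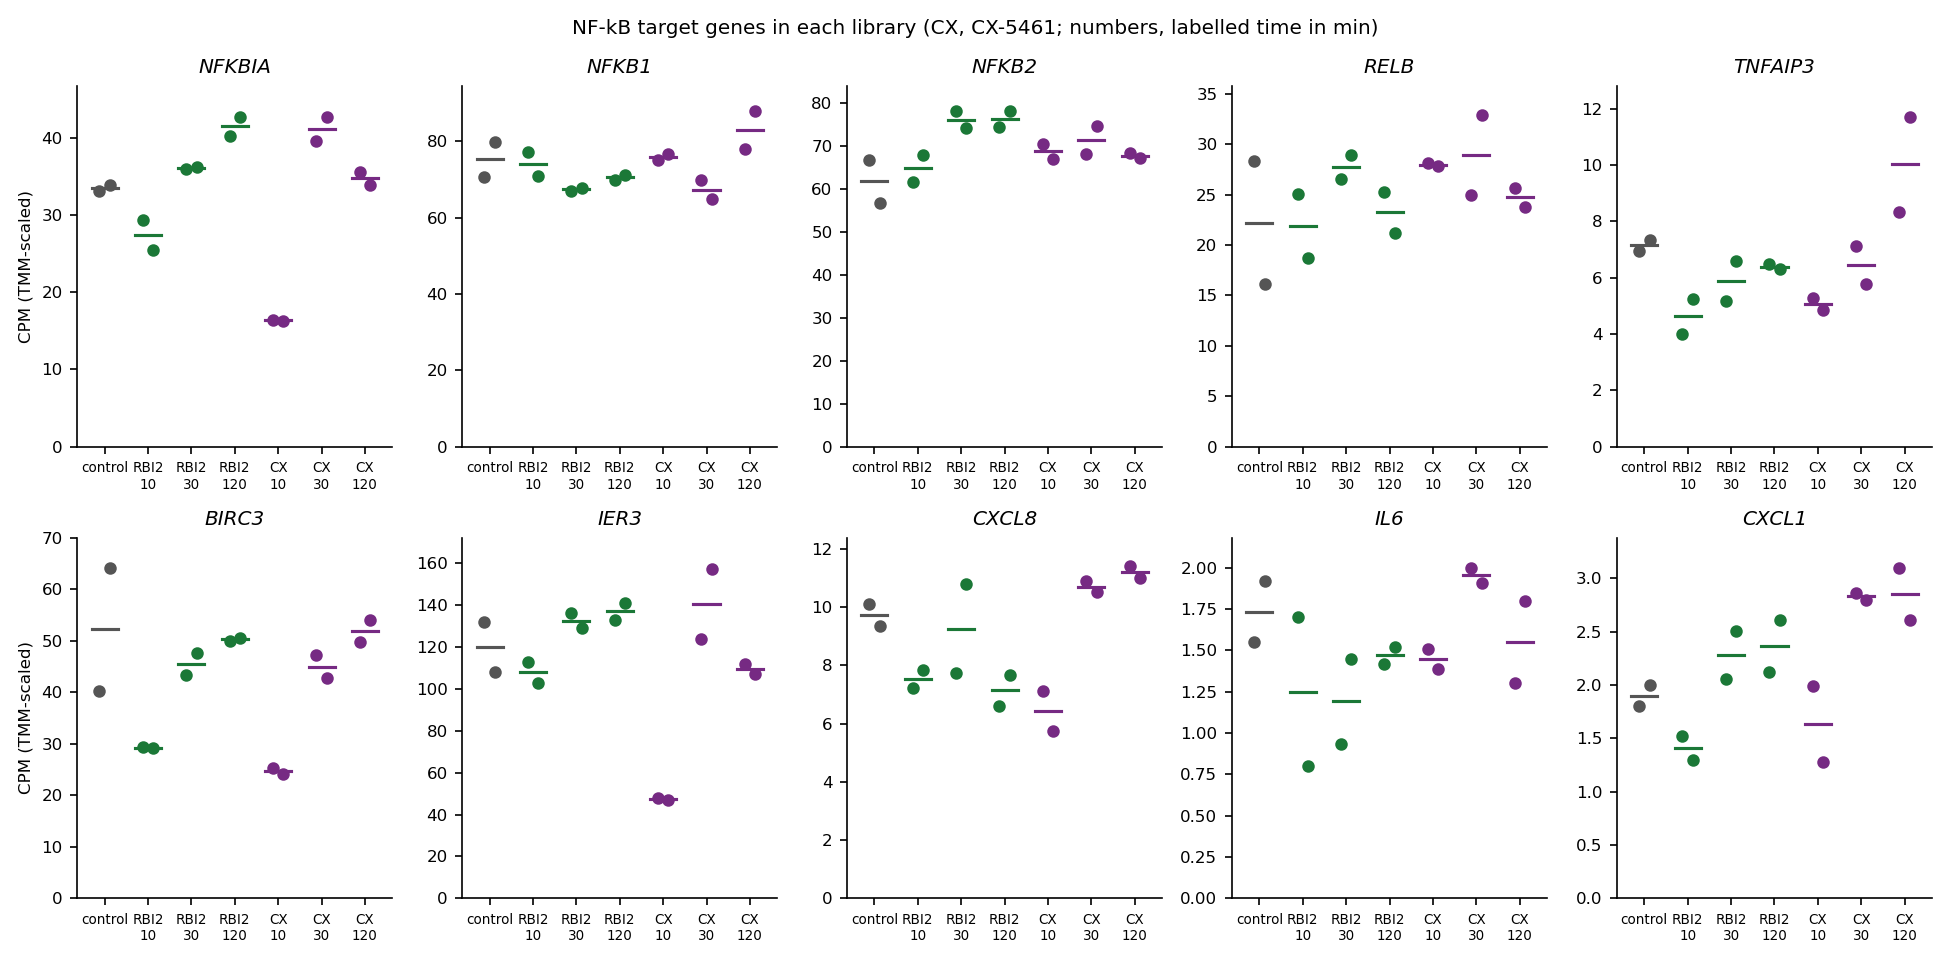
Level of each of the 10 NF-kB target genes in CPM (vertical axes, from 0) in the control and in the RBI2 and CX-5461 (CX) groups at the labelled times in min; points are the 2 libraries of a group and the bar is their mean. NFKBIA, BIRC3 and IER3 had their lowest libraries in the CX-5461 10 min group, with 16.3, 24.2 and 47.1 CPM.

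At the 10 min label, CX-5461-treated cells held less RNA of an inhibitor and of both survival-associated genes. NFKBIA, IER3 and BIRC3 passed the test, all lower than in the control, which were 3 of the 10 genes beside 0.888% of all genes tested that passed in that direction. That share rose without control replicate 1 and fell without control replicate 2. With only the compared groups in the fit, 2 of all genes tested passed as lower, and 0 of the 10 passed. The fold differences were 2.05-fold for NFKBIA, 2.53-fold for IER3 and 2.1-fold for BIRC3. None of the 10 passed as higher, beside 0.752% of all genes tested. The median log2 fold change over the 10 genes was -0.37 and that over all genes tested was -0.04. By DESeq2, as an alternative test, 3 of the 10 passed, all lower, and 162 of the 15426 genes tested passed as lower.

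NFKBIA (ENSG00000100906, chromosome 14, 35401079 to 35404749) encodes the inhibitor IkB-alpha, which retains NF-kB in the cytoplasm and is itself induced by NF-kB. It was at 33.1 and 33.8 CPM in the control libraries and at 16.4 and 16.3 CPM in the CX-5461 10 min libraries, so the groups were far apart and the replicates close together. The log2 fold change was -1.03 (SE 0.09, adjusted p = 0.00016, edgeR's quasi-likelihood test), and over 21 other settings it lay between -1.05 and -1.0. Its adjusted p by the same test was 0.2 with only the compared groups in the fit. In the RBI2 10 min libraries NFKBIA was at 29.3 and 25.4 CPM, below both controls, but the difference of -0.29 did not pass (adjusted p = 0.27). At the 30 min label it stood at 35.9 and 36.2 CPM with RBI2 and at 39.6 and 42.7 CPM with CX-5461, and these libraries were all above the controls. The differences from the control, 0.11 and 0.30, did not pass (adjusted p = 0.45 and 0.21). At the 120 min label RBI2-treated libraries held 40.2 and 42.7 CPM and CX-5461-treated libraries 35.6 and 33.8 CPM. The RBI2 difference of 0.31 had an adjusted p of 0.041 but was under the limit on the fold change, and that of CX-5461 was 0.06 (adjusted p = 0.82). The former kept an adjusted p under 0.05 in 10 of 21 other settings. It was lost without control replicate 2 or either library of RBI2 120 min, RBI2 30 min or CX-5461 10 min, with an adjusted p of 0.055 to 0.17.

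TNFAIP3 (ENSG00000118503, chromosome 6, 137867214 to 137883314) encodes A20, a ubiquitin-editing enzyme that shuts off signalling to IKK. It was at 6.96 and 7.35 CPM in the control, at 4.01 and 5.25 CPM in the RBI2 10 min group and at 5.28 and 4.84 CPM in the CX-5461 10 min group. All 4 of these treated libraries were below both controls, but neither difference passed, at -0.63 for RBI2 (adjusted p = 0.28) and -0.50 for CX-5461 (adjusted p = 0.19). Its highest libraries were those of CX-5461 120 min, at 8.35 and 11.7 CPM, which also lay apart from each other. The difference from the control there was 0.48 (SE 0.20, adjusted p = 0.37). TNFAIP3 overlaps the antisense gene WAKMAR2, and the library kit marks strand, while the strand setting of the read assignment is not given in the sources used here.

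None of the 3 subunit genes passed both thresholds in any comparison. NFKB1 (ENSG00000109320, chromosome 4, 102501330 to 102617302), which encodes p105 and p50, lay between 64.9 and 88.0 CPM in the 14 libraries, and its largest difference from the control was -0.16, in both 30 min groups (adjusted p = 0.27 for each). The 95% interval of its difference in the CX-5461 10 min group, from -0.18 to 0.21, did not hold a change of the size measured for NFKBIA. NFKB2 (ENSG00000077150, chromosome 10, 102394110 to 102402524), which encodes p100 and p52 of the non-canonical pathway, was at 66.7 and 56.8 CPM in the control. It was higher in the RBI2 groups of 30 min, at 78.1 and 74.1 CPM, and of 120 min, at 74.3 and 78.1 CPM. The 120 min difference of 0.30 (SE 0.09) had an adjusted p of 0.049, and that at 30 min, also 0.30, had one of 0.13. The former was 0.17 (adjusted p = 0.25) without control replicate 2 and -0.01 (adjusted p = 0.98) once the mean transcript length of each library was offset. It kept an adjusted p under 0.05 in 2 of 21 other settings, and its adjusted p was 0.053 to 0.25 when any 1 library other than control replicate 1 was left out. RELB (ENSG00000104856, chromosome 19, 45001461 to 45038192), the transcription-activating partner of p52, was at 28.3 CPM in control replicate 1 and at 16.1 CPM in control replicate 2, and all treated libraries but that at 32.9 CPM and the 28.9 CPM of RBI2 30 min replicate 2 fell inside that span. No difference of RELB from the control passed, and each had an SE of 0.24 where that of NFKBIA was 0.09.

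BIRC3 (ENSG00000023445, chromosome 11, 102317484 to 102339403) encodes cIAP2, a ubiquitin ligase that blocks cell death downstream of the TNF receptor. The control libraries were at 40.3 and 64.1 CPM, the RBI2 10 min libraries at 29.3 and 29.2 CPM and the CX-5461 10 min libraries at 25.4 and 24.2 CPM. Both 10 min groups thus lay below both controls, with replicates much closer together than the controls were. The log2 fold change was -1.07 for CX-5461 (SE 0.17, adjusted p = 0.0059) and -0.83 for RBI2 (SE 0.17, adjusted p = 0.11). By DESeq2 both had an adjusted p under 0.05, at -1.05 for CX-5461 (adjusted p = 5.9e-07) and -0.82 for RBI2 (adjusted p = 0.0012, under the limit on the fold change). The size and the calls depended on the controls. Without control replicate 2 the values were -0.71 for CX-5461 (adjusted p = 0.0016) and -0.48 for RBI2 (adjusted p = 0.092). Without control replicate 1 they were -1.37 for CX-5461 and -1.13 for RBI2, and the RBI2 difference then passed (adjusted p = 6.3e-05). The CX-5461 difference also missed the adjusted p without either of its own libraries (adjusted p = 0.058 and 0.054). At the later labels BIRC3 lay between 42.7 and 54.0 CPM in all 8 treated libraries, inside the span of the controls. BIRC3 overlaps the antisense gene ENSG00000288528.

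IER3 (ENSG00000137331, chromosome 6, 30743199 to 30744548) is an immediate early response gene linked to cell survival and to feedback on NF-kB and ERK signalling. The control libraries were at 132 and 108 CPM and the CX-5461 10 min libraries at 47.9 and 47.1 CPM, the lowest of the 14. The log2 fold change of -1.34 (SE 0.12, adjusted p = 0.00018) was the largest of the 10 genes against the control and lay between -1.49 and -1.18 over 21 other settings. In the RBI2 10 min group IER3 was at 113 and 103 CPM, which overlapped the control (-0.15, adjusted p = 0.56). At the later labels it was at 129 to 141 CPM with RBI2 and at 107 to 157 CPM with CX-5461, and no difference from the control passed. NFKBIA, IER3 and BIRC3 in the CX-5461 10 min group all missed the adjusted p when only the 4 libraries compared were fitted, with values of 0.2, 0.18 and 0.37, whereas their fold changes stayed at -1.02, -1.32 and -1.05. The spread was then taken from 2 control and 2 treated libraries. IER3 overlaps the antisense genes HCG20 and IER3-AS1.

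CXCL8 (ENSG00000169429, chromosome 4, 73740519 to 73743716) encodes interleukin-8, a neutrophil-attracting chemokine. It was at 10.1 and 9.35 CPM in the control, and lower in all libraries of RBI2 10 min (7.23 and 7.85 CPM), CX-5461 10 min (7.11 and 5.73 CPM) and RBI2 120 min (6.61 and 7.68 CPM). None of these differences passed, at -0.37 (adjusted p = 0.39), -0.60 (adjusted p = 0.075) and -0.45 (adjusted p = 0.088). With CX-5461 it stood at 10.9 and 10.5 CPM at 30 min and at 11.4 and 11 CPM at 120 min, just above both controls. IL6 (ENSG00000136244, chromosome 7, 22725884 to 22732002), the cytokine interleukin-6, was at 1.55 and 1.92 CPM in the control and between 0.803 and 2 CPM elsewhere. IL6 overlaps the antisense gene IL6-AS1 and STEAP1B on the other strand. No difference of IL6 from the control passed, with an SE of 0.35 or 0.36 on values between -0.55 and 0.18. CXCL1 (ENSG00000163739, chromosome 4, 73869393 to 73871308), another neutrophil chemokine, was at 1.8 and 2 CPM in the control. It was at 2.86 and 2.80 CPM in the CX-5461 30 min group and at 3.10 and 2.61 CPM in the CX-5461 120 min group, above both controls, with differences of 0.58 and 0.59 that did not pass (adjusted p = 0.22 and 0.38). At the 10 min label CXCL1 was at 1.52 and 1.30 CPM with RBI2 and at 1.99 and 1.28 CPM with CX-5461.

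**Figure D2:**
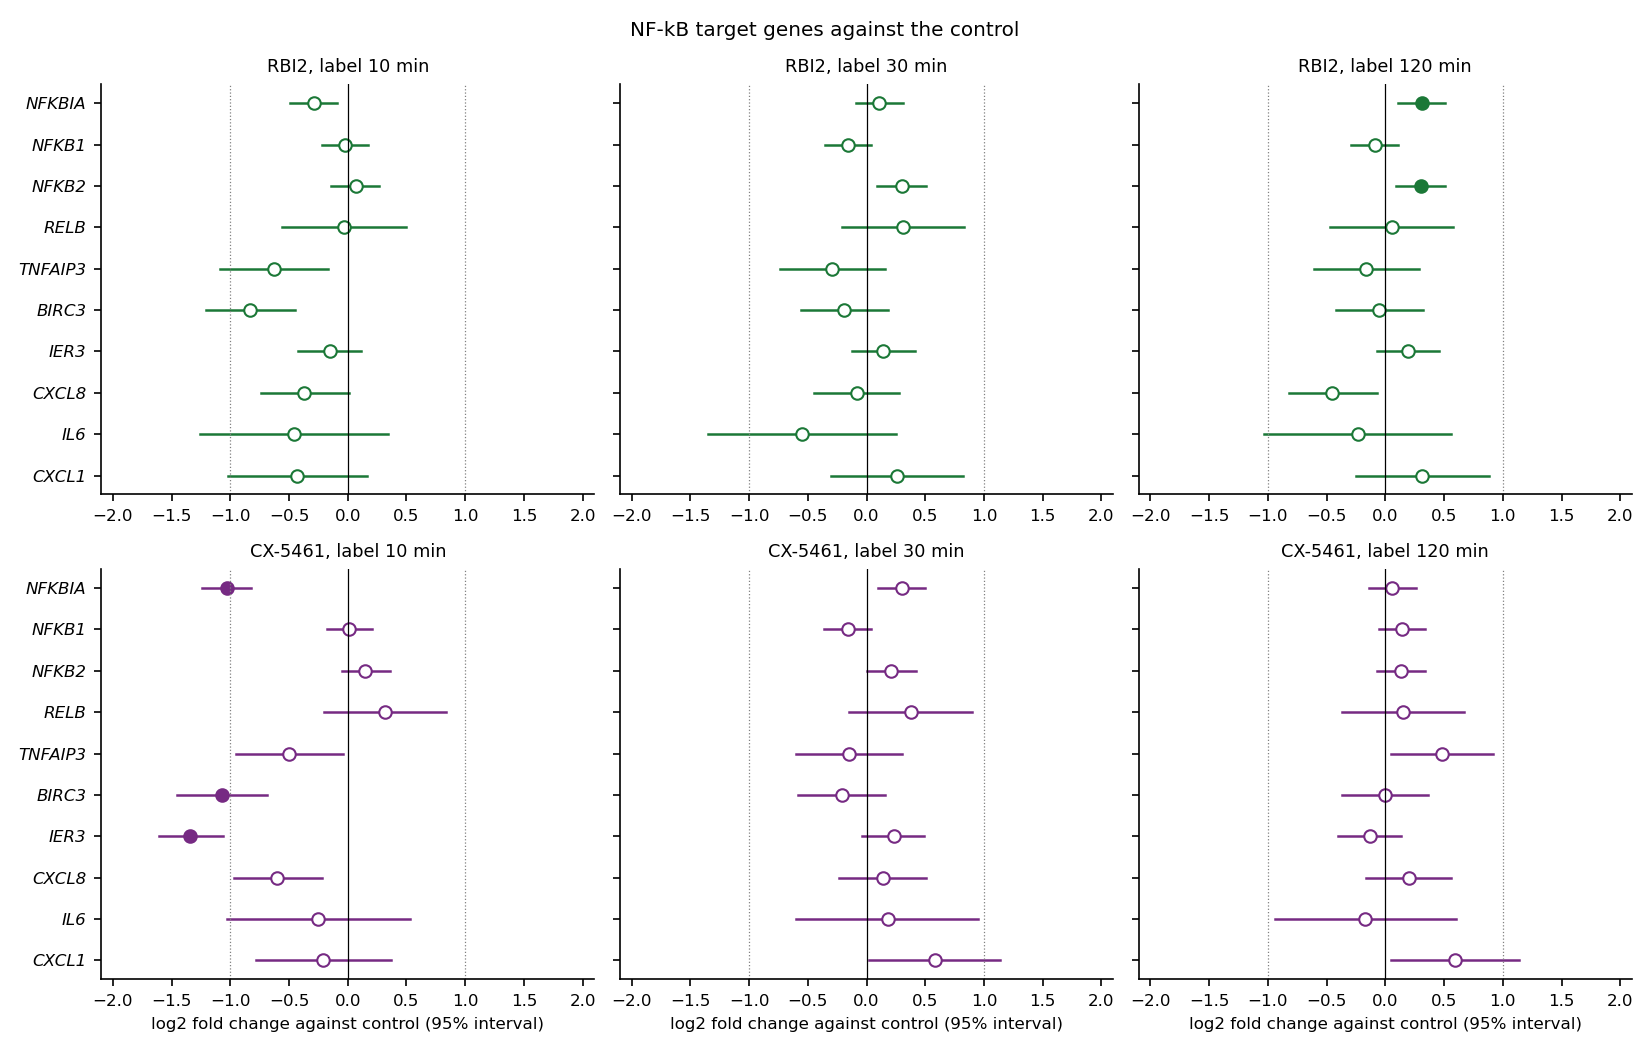
Log2 fold change of each gene against the control (horizontal axes) for RBI2 (upper row) and CX-5461 (lower row) at the 3 labels, with the 95% interval of edgeR's fit as a line; filled points had an adjusted p under 0.05 and dotted lines mark the limit of 1 in either direction. Past both thresholds lay NFKBIA, BIRC3 and IER3 in the CX-5461 10 min panel, at -1.03, -1.07 and -1.34.

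Counted over the list, the other comparisons with the control held no gene past both thresholds. The shares of all genes past both thresholds given here are from the fit of all 14 libraries. Each of them rose without control replicate 1, and that of RBI2 120 min fell without either library of that group. In the RBI2 10 min group 0 of the 10 passed both thresholds by edgeR and 0 by DESeq2, beside 0.0778% of all genes tested, although BIRC3 had an adjusted p of 0.0012 by DESeq2. Of the 10, 9 had a negative log2 fold change there, 3 of them (NFKBIA, TNFAIP3 and BIRC3) with an unadjusted p under 0.05, beside 6.29% of all genes in that direction, and the median was -0.33 against 0.01 over all genes tested. In the RBI2 30 min group 0 passed by either tool, beside 0.0389% of all genes, with 1 gene, NFKB2, higher at an unadjusted p under 0.05, beside 12.6%. In the RBI2 120 min group 0 passed by either tool, beside 1.82% of all genes. By adjusted p alone 2 were higher there (NFKBIA and NFKB2) beside 8.9% of all genes in that direction, and 3 had an unadjusted p under 0.05, beside 35.9% in either direction. In the CX-5461 30 min group 0 passed by either tool, beside 0% of all genes, and in the CX-5461 120 min group 0 passed by either tool, beside 0.0454%. At an unadjusted p under 0.05 there were 3 and 2 of the 10 in these groups, all higher, beside 10.7 and 7.04% of all genes in that direction. The median over the 10 genes lay between 0.00 and 0.19 in the 4 groups of the later labels.

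Set directly against each other at the 10 min label, RBI2-treated and CX-5461-treated cells differed in IER3 and NFKBIA. IER3 was 2.27-fold higher with RBI2 (log2 difference 1.18, SE 0.12, adjusted p = 0.00043), the 1 gene of 10 that passed as higher beside 0.635% of all genes tested. NFKBIA was 1.67-fold higher with RBI2 (0.74, SE 0.09, adjusted p = 0.0015), which passed the adjusted p alone, beside 2.23% of all genes. Both genes had an adjusted p under 0.05 in all 21 other settings, in which IER3 lay between 1.10 and 1.23 and NFKBIA between 0.62 and 0.83. For BIRC3 the difference was 0.24, with a 95% interval from -0.14 to 0.62 (adjusted p = 0.62), so that a difference between the compounds was not detectable at this spread. The intervals for TNFAIP3, from -0.59 to 0.33, and for CXCL8, from -0.15 to 0.61, also held 0.

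At the 30 min label none of the 10 genes differed between the compounds by edgeR or DESeq2, beside 0.013% of all genes tested, and none had an unadjusted p under 0.05. The widest interval was that of IL6, from -1.51 to 0.06, and the narrowest were those of NFKBIA, from -0.39 to 0.01, and NFKB1, from -0.20 to 0.20. At the 120 min label 0 of the 10 passed both thresholds by either tool, beside 1.67% of all genes, and 5 had an unadjusted p under 0.05, beside 31.6%. The share past both thresholds fell without any one library of the groups compared. CXCL8 passed the adjusted p alone, lower with RBI2 (-0.65, SE 0.17, adjusted p = 0.027), beside 10.9% of all genes in that direction. It kept an adjusted p under 0.05 in 13 of 21 other settings and lost it without any library of the 2 groups, either RBI2 10 min library or CX-5461 30 min replicate 1, with an adjusted p of 0.05 to 0.22. TNFAIP3 was at -0.64 (SE 0.20, adjusted p = 0.05, just above the limit) and was at -0.34 (adjusted p = 0.39) without CX-5461 120 min replicate 2. Averaged over the 3 labels, IER3 was higher with RBI2 by 0.48 (SE 0.07, adjusted p = 0.0034) and NFKBIA by 0.27 (SE 0.05, adjusted p = 0.014), both under the limit on the fold change. NFKBIA had an adjusted p of 0.053 without RBI2 120 min replicate 2. By adjusted p alone these were 2 of the 10 beside 6.01% of all genes in that direction, and 0 of the 10 passed both thresholds by either tool, beside 0.882%. This average includes the 10 min libraries, and at the 30 min label IER3 was at -0.09 and NFKBIA at -0.19.

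**Figure D3:**
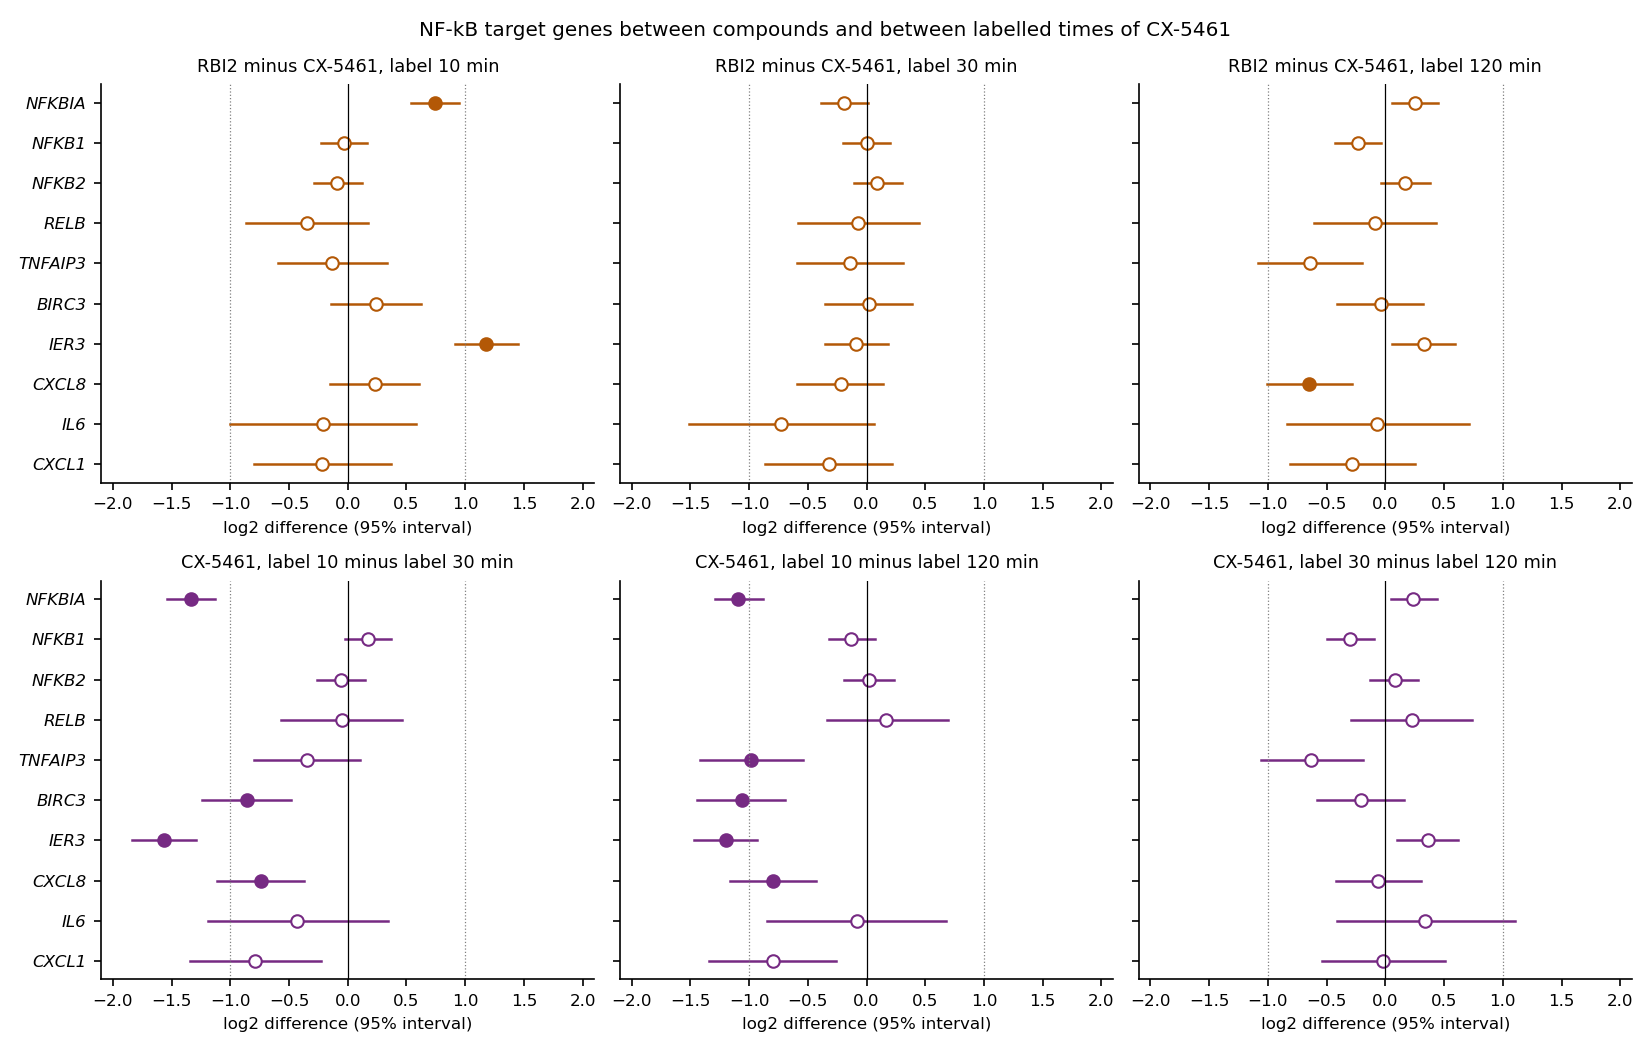
Log2 difference of RBI2 minus CX-5461 at each label (upper row) and between labelled times within CX-5461 (lower row) for each gene, with 95% intervals of edgeR's fit; filled points had an adjusted p under 0.05. IER3 stood at 1.18 in the first upper panel, and NFKBIA and IER3 at -1.33 and -1.56 in the first lower panel.

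Within CX-5461 treatment, where no control library is among those compared, the 10 min group was lower than the later groups in several of the 10 genes. The fit held all 14 libraries, so the control libraries still entered its estimate of spread. Against the 30 min group, NFKBIA was 2.52-fold lower (-1.33, SE 0.09, adjusted p = 2.9e-05) and IER3 2.96-fold lower (-1.56, SE 0.12, adjusted p = 6.7e-05), 2 of 10 beside 0.402% of all genes tested in that direction. Both passed in all 21 other settings. BIRC3 (-0.86, adjusted p = 0.026) and CXCL8 (-0.74, adjusted p = 0.05, just under the limit) passed the adjusted p alone, which made 4 of the 10 beside 1.4%. Neither held without any one of the 4 libraries compared, where the adjusted p was 0.094 to 0.17 for BIRC3 and 0.11 to 0.36 for CXCL8. CXCL8 was also lost without any library of CX-5461 120 min, RBI2 10 min or RBI2 120 min (0.067 to 0.089). Against the 120 min group, NFKBIA (-1.09, SE 0.09, adjusted p = 0.00019), IER3 (-1.20, SE 0.12, adjusted p = 0.00058) and BIRC3 (-1.06, SE 0.17, adjusted p = 0.0083) were lower at 10 min, 3 of 10 beside 0.473%. NFKBIA was at -0.97, under the limit on the fold change, without CX-5461 120 min replicate 1, and BIRC3 missed the adjusted p without CX-5461 10 min replicate 1 (0.084) or 2 (0.086) or CX-5461 120 min replicate 2 (0.067). CXCL8 (-0.80, adjusted p = 0.028) and TNFAIP3 (-0.98, adjusted p = 0.025) passed the adjusted p alone, 5 of the 10 beside 2.16%. TNFAIP3 was at -0.68 (adjusted p = 0.27) without CX-5461 120 min replicate 2 and passed both thresholds, at -1.13, without replicate 1 of that group. Without CX-5461 10 min replicate 1 or 2 its adjusted p was 0.16 and 0.2. CXCL8 was lost without any one of the 4 libraries compared, CX-5461 30 min replicate 1 or any library of RBI2 10 min or RBI2 120 min, with an adjusted p of 0.05 to 0.28. The comparisons with the 30 min group, the 120 min group and the control share the 2 CX-5461 10 min libraries. Between CX-5461 30 and 120 min, 0 of the 10 passed by either tool, beside 0.013% of all genes, with 4 at an unadjusted p under 0.05, beside 19.3%.

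Within RBI2 treatment no gene of the 10 passed both thresholds between labels. Between 10 and 120 min, NFKBIA was lower at 10 min by -0.60 (SE 0.09, adjusted p = 0.012) and BIRC3 by -0.78 (SE 0.17, adjusted p = 0.03), 2 of 10 past the adjusted p alone beside 3.43% of all genes in that direction. Neither passed the limit on the fold change, so that 0 of the 10 passed both thresholds by either tool, beside 0.694%, and 6 had an unadjusted p under 0.05, all lower at 10 min, beside 11.9% of all genes in that direction. Without any one of the 4 libraries compared the adjusted p was 0.05 to 0.094 for NFKBIA and 0.087 to 0.18 for BIRC3, and BIRC3 was also lost without CX-5461 10 min replicate 1 (0.055) or RBI2 30 min replicate 1 (0.054). With the mean transcript length of each library offset, BIRC3 was at -0.50 (adjusted p = 0.32). Between 10 and 30 min 0 of the 10 passed by either tool (0.0583% of all genes), with 5 at an unadjusted p under 0.05, all lower at 10 min, beside 4.48% of all genes in that direction. Between 30 and 120 min 0 passed by either tool (0.013% of all genes), with 1 lower at 30 min at an unadjusted p under 0.05, beside 6.44%.

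Beyond the 10 genes, the rest of the pathway did not follow NFKBIA and IER3 in 1 direction. Other genes of NF-kB signalling, 82 in 4 lists, were read in the same way, and 71 of them were tested. In the CX-5461 10 min group 2 of the 71 passed, both higher, beside 1.64% of all genes in either direction. NFKBID (chromosome 19, 35887653 to 35902303), an atypical inhibitor protein of the nucleus, was at 3.67 and 2.88 CPM in the control and at 9.49 and 7.39 CPM with CX-5461. The log2 fold change was 1.36 (SE 0.17, adjusted p = 0.0015), and NFKBID was lower with RBI2 than with CX-5461 at that label by -1.40 (adjusted p = 0.0012), the only one of the 71 past the test between the compounds there, beside 0.402% of all genes in that direction. IRF1 (chromosome 5, 132440440 to 132508719), a transcription factor of the interferon response, was at 22.7 and 16.8 CPM in the control and at 45.8 and 43.1 CPM with CX-5461. Its difference was 1.17 (SE 0.13, adjusted p = 0.00066, edgeR's quasi-likelihood test). It was 0.96 without control replicate 2 and 0.98 with the length offset, both under the limit on the fold change. NFKBID overlaps ENSG00000280194 on the same strand, and IRF1 overlaps ENSG00000283782, IRF1-AS1 and Y_RNA on the other strand.

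List by list in the CX-5461 10 min group, 6 of the 21 tested among the other targets were higher by adjusted p alone, beside 1.8% of all genes, and 1 lower, beside 2.98% (CFLAR, EFNA1, GADD45B, IRF1, NUAK2, SDC4 and TNFAIP2 together), with a list median of 0.13. Of the 16 other subunits and inhibitors, 1 was higher and 1 lower by adjusted p alone, NFKBID and NFKBIZ, with a median of 0.09. NFKBIZ was lower there, at -0.89, as NFKBIA was. At that label it was higher with RBI2 than with CX-5461 by 0.85, past the adjusted p alone, beside 2.23% of all genes. In CX-5461 10 against 120 min it passed both thresholds as lower (-1.24), beside 0.473%, whereas NFKBID passed as higher (1.19). Of the 12 cytokine and chemokine genes tested out of 19, 0 passed by adjusted p, with a median of -0.22, and of the 22 genes of signalling to IKK 1 did, TRAF6, which was lower, with a median of -0.17. The median over all genes tested was -0.04. In the RBI2 10 min group 1 of the 71 passed, beside 0.0778% of all genes tested. This was GADD45B (chromosome 19, 2476122 to 2478259), a stress-induced survival factor. It was at 29.4 and 24.3 CPM in the control and at 55.6 and 55.3 CPM with RBI2, a difference of 1.04 (SE 0.10, adjusted p = 0.0018) that was 0.90 without control replicate 2. With CX-5461 at that label GADD45B was at 49.2 and 50 CPM (0.88, adjusted p = 0.00057), under the limit on the fold change.

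In the RBI2 120 min group 2 of the 71 passed, beside 1.82% of all genes tested. ZC3H12A (chromosome 1, 37474580 to 37484377), which encodes an RNase that degrades cytokine mRNAs, was at 4.79 and 2.96 CPM in the control and at 7.73 and 8.05 CPM with RBI2 (1.01, SE 0.23, adjusted p = 0.019), and at 0.70 (adjusted p = 0.072) without control replicate 2. Without RBI2 120 min replicate 1 or 2 its adjusted p was 0.098 and 0.084. In the CX-5461 120 min group ZC3H12A was at 9.25 and 7.71 CPM, a difference from the control of 1.12 (adjusted p = 0.23). Between the compounds at that label it differed by -0.11, with a 95% interval from -0.57 to 0.35. TAB2 (chromosome 6, 149218641 to 149411613), an adaptor that links TRAF6 to the kinase TAK1, was at 38.2 CPM in control replicate 1, at 111 CPM in control replicate 2 and at 24.7 and 25.7 CPM with RBI2. Its difference of -1.56 (SE 0.36, adjusted p = 0.021) was -0.62 without control replicate 2, the library that stood apart, and TAB2 missed the adjusted p without RBI2 120 min replicate 1 (0.13) or 2 (0.09). TAB2 was below both controls in all 12 treated libraries, and its differences from the control in the other 5 treated groups lay between -1.44 and -1.16 (adjusted p = 0.057 to 0.27). With the length offset TAB2 was at -1.02 (adjusted p = 0.065) and ZC3H12A at 1.05 (adjusted p = 0.062). ZC3H12A, TAB2, GADD45B, NFKBID and IRF1 all missed the adjusted p against the control when only the 4 libraries compared were fitted (0.29 to 0.89). On the same strand TAB2 overlaps SUMO4, RN7SL234P, ENSG00000228408 and ENSG00000283608, and ZC3H12A overlaps MIR6732. On the other strand TAB2 overlaps FABP12P1 and TAB2-AS1. By adjusted p alone, 7 of the 22 genes of signalling to IKK were lower in the RBI2 120 min group, beside 9.07% of all genes in that direction, and 2 were higher, beside 8.9%, with a list median of -0.21 against 0.01 over all genes tested. These list counts are from the fit of all 14 libraries, and no alternative is given for them. Over all genes tested, 61 lower and 219 higher passed both thresholds in that fit for RBI2 120 min. With the length offset these were 5 and 77, and with only the compared groups 0 and 0. The lower genes of signalling to IKK were TAB2, TLR4 (-0.76), TRAF6 (-0.58), BIRC2 (-0.53), MAP3K7 (-0.50), CHUK (-0.41) and TBK1 (-0.41). The higher ones of that list were TAB1 (0.40) and IKBKB (0.36). MAP3K7 encodes TAK1, CHUK and IKBKB the catalytic subunits of IKK, and TRAF6 and BIRC2 ubiquitin ligases upstream of them. Of the 16 other subunits and inhibitors, 2 were higher (ZC3H12A and NKIRAS2) and 2 lower (BCL3 and TAX1BP1), with a median of 0.18. Of the 12 cytokine and chemokine genes 1 was higher, CSF1, and of the 21 other targets 3 were higher, CFLAR, GADD45B and TNFAIP2, with medians of 0.13 and 0.10. In the RBI2 30 min, CX-5461 30 min and CX-5461 120 min groups 0 of the 71 passed, beside 0.0389, 0 and 0.0454% of all genes. These shares rose without control replicate 1.

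**Figure D4:**
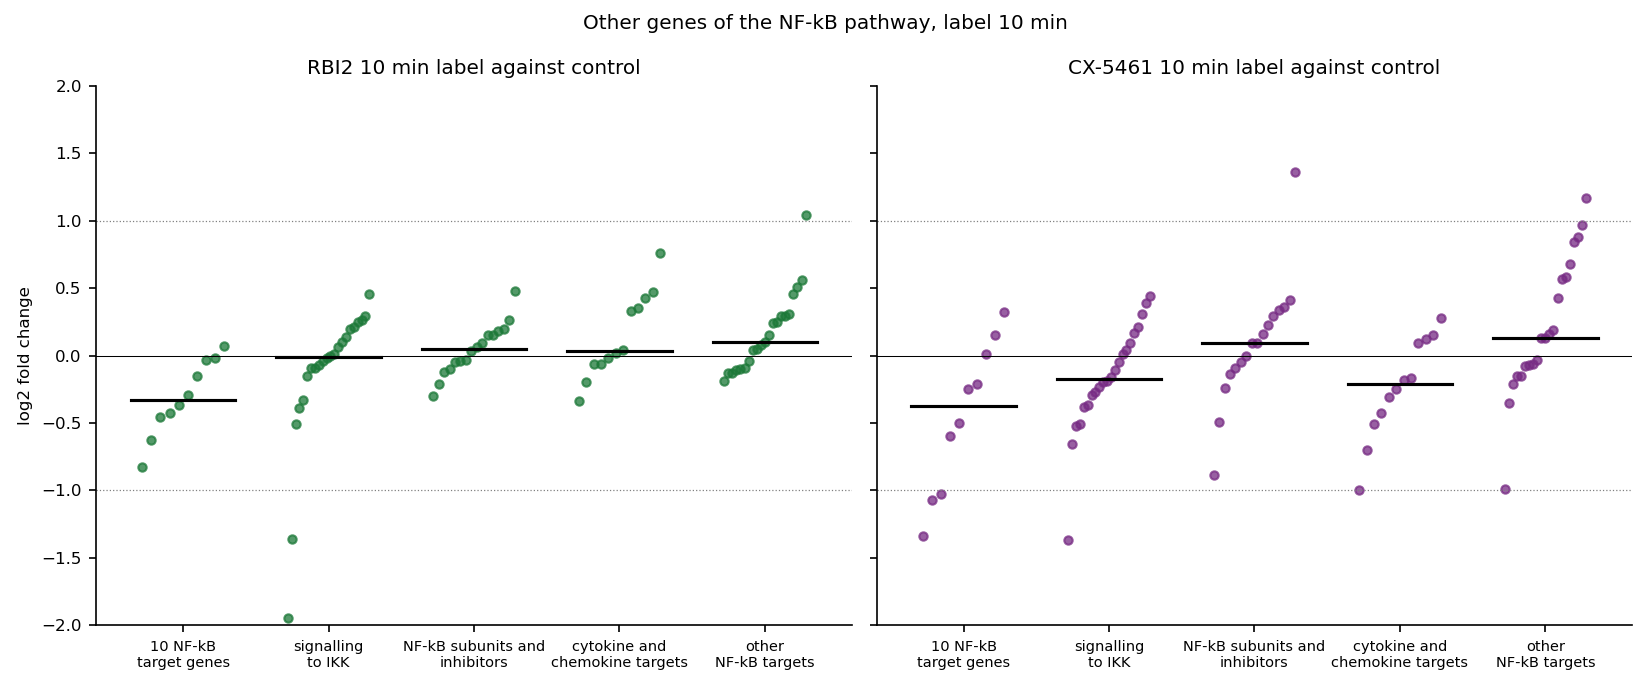
Log2 fold change against the control at the 10 min label (vertical axes) for RBI2 (left) and CX-5461 (right); each point is a gene of the 10 targets or of the 4 lists of other NF-kB pathway genes, sorted within its list, with a bar at the list median and dotted lines at the limit of 1. With CX-5461 the medians were -0.37 for the 10 targets, -0.17, 0.09 and -0.22 for the next 3 lists and 0.13 for the other targets.

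The profile over the 7 group means was compared between genes as a description, over 10570 genes with at least 5 CPM on average. NFKBIA and IER3 had a Pearson r of 0.97 with each other, where IER3 ranked 9 among the genes nearest NFKBIA. The genes nearest NFKBIA were APOL2 (r = 0.986), HILPDA (0.985) and ALKBH2 (0.985), and those nearest IER3 were CDC42EP2 (0.991), SNHG12 (0.979) and ATF4 (0.978). All of these had their lowest mean in the CX-5461 10 min group, and the 7 points share their libraries and that 1 low group. The genes nearest CXCL8 were SETD4 (0.963), RMND1 (0.961) and PTX3 (0.947). Among the other members measured in this way, r with NFKBIA was 0.88 for BIRC3, 0.63 for CXCL8, 0.49 for TNFAIP3, 0.34 for NFKB2, -0.13 for RELB and -0.39 for NFKB1.

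In sequence, the annotated 3′ UTRs of the listed genes were searched for a short motif, and no test was made of the counts. The pentamer AUUUA, which occurs in elements of short-lived mRNAs, was counted in the 3′ UTR of the MANE Select transcript of each gene, a description added after the values were seen. It occurred 6 times in IER3 (8.14 per kb), 12 times in BIRC3 (5.22 per kb) and 3 times in NFKBIA (6 per kb), against a median of 1.72 per kb over 12279 genes tested. Among the cytokines the density was 14.1 per kb in IL6, 7.77 in CXCL1 and 7.19 in CXCL8, and of these IL6 alone lay above IER3, whereas RELB held none. NFKB1 had 4.24 per kb, NFKB2 6.76 per kb from a single match, and TNFAIP3 2.51 per kb. The density did not separate the genes that passed from those that did not. The transcript read for BIRC3 was assigned a median of 5.78% of the reads of the gene over libraries, that for TNFAIP3 a median of 0%, and those for NFKB1 and NFKB2 medians of 37.4 and 42.8%, so that these counts need not describe the 3′ UTRs present in the cells.

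The assignment of reads to transcripts within a gene was examined as a readout that the sums do not use. In IER3, BIRC3 and CXCL8 at least 98.94% of the reads of any library fell on protein-coding transcripts. In NFKBIA the share lay between 82.6 and 100%. In NFKB1 it lay between 28.65 and 65.22%, because between 33.68 and 67.55% of its reads were assigned to NFKB1-212, a transcript annotated for nonsense-mediated decay. The group shares of NFKB1-212 lay between 43.66% for CX-5461 120 min and 63.85% for RBI2 30 min, with 51.08% in the control. Salmon divides reads shared between transcripts by a model, so these shares are estimates, and no test was made of them.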

How the data were processed

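RNA-seq of MDA-MB-231 cells gave 14 libraries, 2 per group, grouped by their sample labels. Per the paper's methods, the authors prepared poly(A) libraries with a stranded kit, set aside the rDNA reads and quantified the rest against GRCh38 transcripts with Salmon (version 1.3.0 in the submitters' processing notes). The deposited values were, per transcript, estimated counts (NumReads, neither normalized nor rounded), TPM values, and transcript and effective lengths, all made by the authors. TPM is not corrected for composition, so the deposited TPM values served only to compare genes. Transcripts were matched by identifier to GENCODE 44 (225662 of 228754), and estimated counts were summed per gene and rounded. Unmatched transcripts held 1.03 to 1.13% of the reads.

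The gene counts were scaled with TMM and fitted with edgeR 4.0.16, with limma 3.58.1 loaded (R 4.3.3), after filterByExpr (minimum count 10). One quasi-likelihood model held all 14 libraries in 7 groups, with Benjamini-Hochberg adjustment over the 15426 genes tested in each of 16 comparisons. The script was tested on simulated data. The 10 genes, the pathway lists and the rules were chosen with earlier results of these data known. Other genes were named by rule: at most 3 called genes of the pathway lists per comparison with the control or between compounds, and the 3 genes nearest NFKBIA, IER3 and CXCL8 in profile. Genes of the lists past the adjusted p alone are named for CX-5461 10 min and RBI2 120 min against the control, a choice made after their values were seen. NFKBIZ between the compounds at 10 min, and NFKBID and NFKBIZ for CX-5461 10 against 120 min, were also named after their values were seen. One marker gene is not reported here. The alternatives were DESeq2 1.42.0 (adjusted and unadjusted p), DESeq2's size factors, no filter, no mitochondrial genes, a length offset, no limit on the fold change, an unadjusted p, the replicate number as a block, fewer libraries in the fit, and each library left out. A group left with 1 library was assumed to vary like the others.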

Additional observations from a re-analysis of the deposited data

Results flagged for a closer look

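No group had enough libraries for a test of outliers. Differences between compounds or labelled times that passed the test of the difference itself (edgeR's quasi-likelihood test, adjusted p under 0.05 and an absolute log2 difference of at least 1) were these. At the 10 min label IER3 was higher with RBI2 than with CX-5461 by 1.18 on the log2 scale. Within CX-5461, the 10 min group stood below the 30 min group by -1.33 for NFKBIA and -1.56 for IER3, and below the 120 min group by -1.09 for NFKBIA, -1.20 for IER3 and -1.06 for BIRC3. Both libraries of the lower group were below both libraries of the other in each of these.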

How the results depend on the processing

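The counts of the 10 genes past both thresholds were recomputed under each alternative, and no direction reversed among the genes that passed both thresholds. Without a limit on the fold change, the counts follow with the share of all genes tested in the same direction. For RBI2 120 min against the control 2 genes were counted, both higher (8.9%). For RBI2 against CX-5461 there were 2 higher at 10 min (2.23%) and 1 lower at 120 min (10.9%). Over the mean of the 3 labels 2 were higher (6.01%). Between labels 2 were lower for RBI2 10 against 120 min (3.43%). For CX-5461 4 were lower for 10 against 30 min (1.4%) and 5 for 10 against 120 min (2.16%). With only the compared groups in the fit, 0 were counted for CX-5461 10 min against the control. With 1 library left out, the count ranged from 0 to 1 for RBI2 10 min against the control (BIRC3, without control replicate 1), from 2 to 3 for CX-5461 10 min against the control and from 2 to 3 for CX-5461 10 against 120 min. Without control replicate 1 the share of all genes tested that passed against the control also rose in every treated group, RBI2 10 min among them. The cause of these changes was not tested. The replicate block changed no count of the 10 genes in any comparison, with 3 for CX-5461 10 min against the control, and of the genes past the adjusted p alone it lost NFKBIA (0.055) and NFKB2 (0.064) for RBI2 120 min and CXCL8 (0.074) for CX-5461 10 against 30 min. The offset for transcript length also ended calls by adjusted p alone of NFKBIA for RBI2 120 min against the control (0.11), of CXCL8 between the compounds at 120 min (0.078), of BIRC3 (0.11) and CXCL8 (0.18) for CX-5461 10 against 30 min, and of TNFAIP3 (0.16) and CXCL8 (0.079) for CX-5461 10 against 120 min. With only the compared groups in the fit, NFKBIA (0.34) and NFKB2 (0.36) for RBI2 120 min and CXCL8 (0.062) for CX-5461 10 against 30 min missed it too. Replicate numbers are not shown to pair libraries, since deviations of same-numbered libraries correlated at -0.18 to 0.18 over 21 pairs of groups. Of single-gene values under the alternatives, 3816 kept their side of the threshold, 14 came to pass and 10 no longer passed. Most values that kept their side were of genes and comparisons that had not passed in the first place. These totals therefore do not measure how stable the calls were. Depth limits IL6, with 13 to 32 reads per library, and CXCL1, with 21 to 76.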
